A study of Ginkgo biloba with 15 samples.

Results

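The 19 predicted miRNA names of Ginkgo biloba embryos, all those beginning with novel_ in the deposited small-RNA count table, were followed over 3 collection months. They were chosen by name and not by their values, and they are 19 of the 361 names in the table. The other 342 are known names, each with the prefix of the plant species under which that entry is listed. Ginkgo biloba is a gymnosperm tree. Embryos came from healthy trees growing outdoors, with no treatment named in the labels. The months were September and November of 2015 and February of the following year, 2016. Each month had 3 small-RNA libraries, numbered 1 to 3 in their titles, so 9 libraries were used. The labels do not say how many trees, seeds or embryos a library holds, so the p-values describe the spread among these 9 libraries alone, part or all of which may be technical.

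Plant miRNAs are short RNAs cut from a hairpin precursor by a Dicer-like enzyme and loaded into an Argonaute protein. They pair with transcripts that they match almost fully, which are then cut or translated less. A miRNA is called predicted when reads map to a genome sequence that can fold into such a hairpin and no catalogued miRNA has that sequence. How the names were predicted in this study is not given in the sources used here. If it was from these reads, a count in at least 1 library follows from the choice of names. Detection in more libraries, and at higher counts, than for known names may then follow from that choice too. The table pairs each name with counts alone, and neither the sequences nor the targets of the names were analysed here, so the role of each name is unknown. The names are numbered between 1 and 29, and the numbers between them that have no row were not analysed here.

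Counts under all miRNA names summed to 90008 in November 2 and to 1269029 in November 1, the ends of the range. Reads under no miRNA name are not part of these totals. Where a name has no count, the data allow up to 3 counts, that is 2.36 CPM (counts scaled to a listed total of 1000000 a library) in November 1 and 33.3 CPM in November 2. The libraries with the fewest counts in each month were September 2 (221070), November 2 (90008) and February 3 (149187). TMM factors, which correct library totals for differences in composition, were 1.25, 1.6 and 1.42 in these 3 libraries and 0.768 to 0.926 in the other 6. None of the 19 rows held the same counts as another name, whereas 149 known names did. In whole-embryo RNA, fewer cells that make a miRNA and less of it per cell cannot be told apart.

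Most predicted names were detected in most libraries. A library held a count for 15 to 19 of the 19 names, lowest in November 2 and highest in September 3. That is 78.9% to 100% of them, against 47.4% to 74% of the known names in the same libraries. With each library reduced to 90008 counts, the expected number detected was 12.8 (November 1) to 15 (November 2), so the range narrowed. At least 10 counts were reached by 8 names in February 3 and by 13 in September 3, November 1 and November 3. A total of 12 names (63.2%) had a count in all 9 libraries, against 115 of the 342 known names (33.6%). Among names of families conserved among land plants it was 97 of 275 (35.3%). For names with the prefix pab, pta, pde, cln or pla it was 14 of 40 (35%). The known names include 149 with the same counts as another name, so the 342 are not separate profiles. Whether the way names were chosen set this difference was not tested.

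The minimum for testing, at least 10 counts in at least 3 libraries, was passed by 13 predicted names (68.4%) and by 132 known names (38.6%). Among the names that passed, predicted ones were the less abundant. Their median level was 347 CPM against 625 CPM for known names. Over all names, tested or not, the order was the reverse, with medians of 28.5 CPM for predicted and 5.93 CPM for known names. The 6 names under the minimum were novel_1, novel_2, novel_18, novel_21, novel_23 and novel_29.

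Predicted names together took a small share of the counts. It was 0.823% in September 1 (exact Clopper-Pearson 95% interval 0.797% to 0.849%), 2.14% in September 2 (2.08% to 2.2%) and 0.6% in September 3 (0.582% to 0.618%). In November it was 0.487% (0.475% to 0.499%), 2.82% (2.71% to 2.93%) and 0.685% (0.669% to 0.702%) in libraries 1 to 3. In February it was 1.46% (1.43% to 1.49%), 1.13% (1.1% to 1.17%) and 1.25% (1.2% to 1.31%). These intervals cover counting error only. September 2 and November 2, the libraries with the fewest counts in their months, held the highest shares of all 9. The intervals of the 3 libraries of a month did not overlap. Averaged by month, September had 1.19% ± 0.834, November 1.33% ± 1.29 and February 1.28% ± 0.166 (SD, n = 3). Without September 2 the September mean was 0.711%, and without November 2 that of November was 0.586%, whereas February stayed at 1.19% to 1.36% with any 1 library left out. Months overlapped and differed by less than the spread within September or November.

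A few names made up nearly all of that share. Over all libraries novel_3 held 45.3% of the 41664 counts under predicted names, novel_6 22.1%, novel_8 10.8% and novel_10 9.71%. These 4 names took 80.4% (February 3) to 92.3% (September 1) of the predicted counts of a library. The leading name was novel_3 in 6 libraries, at 41.6% to 78.2% of the predicted counts. It was novel_6 in the other 3, at 30.2% in November 1, 62.6% in February 1 and 33.2% in February 2. Without novel_3, the share of the predicted names averaged 0.434% ± 0.225 (September), 0.395% ± 0.212 (November) and 0.89% ± 0.408 (February; SD, n = 3).

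By mean CPM over the 9 libraries, novel_3 was first at 6938 and ranked 28 among all 361 names, above 92.1% of the known names. It was followed by novel_6 (2034 CPM, rank 42), novel_8 (1203 CPM, rank 55) and novel_10 (927 CPM, rank 66). Next came novel_13 (448 CPM), novel_14 (389 CPM), novel_15 (347 CPM), novel_16 (156 CPM) and novel_24 (98.3 CPM). The lowest of the 13 tested were novel_28 (28.5 CPM), novel_19 (21.2 CPM), novel_26 (21 CPM) and novel_25 (14.8 CPM). Neighbours in this order were rarely separated. Only novel_24 lay above the next name, novel_28, in all 9 libraries. All other neighbours changed places in at least 2 libraries, and novel_3 was above novel_6 in 6 of 9.

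novel_15 was the only tested predicted name with months that did not overlap, and this held in all 3 comparisons. It stood at 71.4, 113 and 130.1 CPM in September libraries 1 to 3, at 162, 278 and 252 CPM in November, and at 728, 649 and 744 CPM in February. Every November library was above every September library and below every February library. The counts behind these values were 34, 25 and 93 in September, 206, 25 and 242 in November, and 364, 244 and 111 in February. The means were 105 ± 30.2, 231 ± 60.5 and 707 ± 51.2 CPM (SD, n = 3). Of 145 names tested, it alone was higher at both steps with no overlap of months (0.69%), with CPM from totals and with TMM-scaled CPM, and none was lower at both. The month accounted for 92.6% of the variance of its log2 CPM and the library number for 1.54%, and no other of the 145 names had a larger share with the month.

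Set against September, novel_15 in February differed by 2.66 on the log2 scale (SE 0.62, edgeR adjusted p = 0.162, unadjusted p = 0.00224). With the library number as a block it was 2.7 (SE 0.56, edgeR adjusted p = 0.0328), higher in 3 of 3 numbered pairs. Omitting 1 library at a time ended the blocked call in 6 of 9 cases, namely for September 1, 2 or 3, November 1 or 2 and February 1, with adjusted p up to 0.263. DESeq2 gave an adjusted p of 3e-09 without the block and 5.4e-05 with it. The first step, September to November, gave 1.05 (SE 0.59, edgeR adjusted p = 0.997) and the second, November to February, 1.61 (SE 0.6, edgeR adjusted p = 0.798, unadjusted p = 0.0255). DESeq2 without the block called the second of these steps (adjusted p = 0.0063) and with it did not (adjusted p = 0.0628), and edgeR with the block called it without February 3 (adjusted p = 0.035). In all fits run, left-out libraries included, the sign was positive in all 3 comparisons.

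novel_6 held 1496, 982 and 332 CPM in September, 1467, 689 and 101 CPM in November, and 9136, 3759 and 349 CPM in February. Library 3 was the lowest in each month, and February 1 and 2 were above all others. Since February 3 lay below most September and November libraries, the months overlapped. From November to February it differed by 2.62 on the log2 scale (SE 1.43, edgeR adjusted p = 0.983), or by 2.46 with the block (SE 0.64, edgeR adjusted p = 0.0909). With 1 library left out the value was 1.37 (without February 1) to 3.38 (without November 1), and with the block 2.15 (without February 1) to 3.01 (without February 3). DESeq2 with the block called this step (adjusted p = 0.0083), as did edgeR with the block without February 3 (adjusted p = 0.012) and with all libraries numbered 3 left out (adjusted p = 0.00036). From September to February novel_6 differed by 2.28 (SE 1.41, edgeR adjusted p = 0.882). The blocked value was 1.51 (SE 0.65, edgeR adjusted p = 0.197). Here 1 library left out gave 1.06 (February 1) to 3.12 (September 1), and with the block 1.05 (September 1) to 2.2 (February 3). The latter comparison passed with the block without February 3 (adjusted p = 0.019) and without the libraries numbered 3 (adjusted p = 0.0018). From September to November it was −0.34 (SE 1.34, edgeR adjusted p = 0.997), lower in 3 of 3 pairs by CPM.

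Besides novel_6, 4 other names were lowest in library 3 in every month by CPM from totals, novel_14, novel_19, novel_24 and novel_28. These 5 are 38.5% of the 13 predicted names tested, beside 21 of all 145 names (14.5%). None of the 13 was highest in library 3 in every month, as 51 of 145 names were (35.2%). The number accounted for 66.3% (novel_28) to 86.6% (novel_24) of the variance of log2 CPM in these 5 names, and the month for 2.28% (novel_19) to 30.1% (novel_28).

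novel_14 stood at 235, 633 and 75.5 CPM in September, 189.9, 933 and 78 CPM in November, and 640.3, 505 and 214 CPM in February. The months overlapped in every comparison. Its log2 fold changes were 0.03 (SE 0.97, edgeR adjusted p = 0.997) from September to November, 0.67 (SE 0.98, edgeR adjusted p = 0.983) from November to February and 0.69 (SE 0.98, edgeR adjusted p = 0.901) from September to February.

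novel_24 held 107, 249 and 19.6 CPM in September, 41, 300.0 and 11.4 CPM in November, and 60, 77.1 and 20.1 CPM in February. Library 2 was the highest in each month. It differed by −0.54 (SE 1.16, edgeR adjusted p = 0.997), −0.55 (SE 1.17, edgeR adjusted p = 0.983) and −1.08 (SE 1.17, edgeR adjusted p = 0.882) on the log2 scale in the same 3 comparisons.

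novel_28 stood at 14.7, 13.6 and 1.4 CPM in September, 26.8, 77.8 and 4.16 CPM in November, and 46, 58.5 and 13.4 CPM in February. In 3 of 3 library numbers the September value was the lowest. The log2 fold changes were 1.44 (SE 1.2, edgeR adjusted p = 0.997) from September to November, 0.58 (SE 1.15, edgeR adjusted p = 0.983) from November to February and 2.03 (SE 1.21, edgeR adjusted p = 0.882) from September to February. The last was 2.02 with the block (SE 0.71, edgeR adjusted p = 0.12), and the counts behind it were only 11 in the 3 September libraries and 47 in the 3 of February.

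novel_19 held 31.5, 9.05 and 7 CPM in September, 44.9, 33.3 and 4.16 CPM in November, and 32, 29.2 and 0 CPM in February. The 0 of February 3 allows up to 20.1 CPM, and September 2 and 3 held 2 and 5 counts. The log2 fold changes were 0.6 (SE 1.36, edgeR adjusted p = 0.997), −0.26 (SE 1.35, edgeR adjusted p = 0.99) and 0.34 (SE 1.36, edgeR adjusted p = 0.91) in the order above, each smaller than its standard error.

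novel_3, novel_13 and novel_16 were highest in the library with the fewest counts of every month, 3 of 13 names (23.1%) beside 14 of 145 (9.66%). novel_3 stood at 3419.7, 15108 and 4113 CPM in September, 1104, 22042 and 4916 CPM in November, and 1569, 2477 and 7688 CPM in February. Its counts were 784 to 4727, a 6.03-fold range, while the totals of the libraries spanned 14.1-fold. Counts of novel_13 spanned 11-fold and those of novel_16 27.8-fold. Outside this group, counts of novel_8 spanned 9.11-fold and those of novel_10 16.3-fold. The log2 fold changes of novel_3 were −0.01 (SE 0.87, edgeR adjusted p = 0.997) from September to November, −1.08 (SE 0.88, edgeR adjusted p = 0.983) from November to February and −1.09 (SE 0.88, edgeR adjusted p = 0.882) from September to February. With the block and without the libraries numbered 3, the last was −1.63 and past the threshold (edgeR adjusted p = 0.011). Whether depth or composition set these values was not tested.

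novel_13 was at 84, 1022 and 39.2 CPM in September, 62.3, 1078 and 321 CPM in November, and 252, 279 and 898 CPM in February. The high values were 226, 97 and 134 counts. Its log2 fold changes were 0.22 (SE 1.16, edgeR adjusted p = 0.997), 0.12 (SE 1.16, edgeR adjusted p = 0.994) and 0.34 (SE 1.16, edgeR adjusted p = 0.91) in the order above.

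novel_16 held 31.5, 280.5 and 143 CPM in September, 26.8, 267 and 115 CPM in November, and 16, 10.6 and 516 CPM in February. The February libraries held both the lowest 2 values and the highest. Its log2 fold changes were −0.34 (SE 1.32, edgeR adjusted p = 0.997), 0.22 (SE 1.33, edgeR adjusted p = 0.99) and −0.12 (SE 1.32, edgeR adjusted p = 0.963). The second was −3.17 without the libraries numbered 3, and did not pass there either.

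novel_8 spanned a 7.73-fold range over all libraries. It stood at 1202, 1398 and 877 CPM in September, 344, 1222 and 660.4 CPM in November, and 1271, 2664 and 1193 CPM in February. By CPM from totals, November was the lowest month and February the highest for each library number. TMM factors were 0.768 in September 1 and 0.848 in February 1, and 0.895 in September 3 and 1.42 in February 3. With these factors February need not stay above September in numbers 1 and 3. The month accounted for 52.8% of its variance and the number for 13.4%. The log2 fold changes were −0.88 (SE 0.66, edgeR adjusted p = 0.997) from September to November, 1.39 (SE 0.67, edgeR adjusted p = 0.983) from November to February and 0.51 (SE 0.66, edgeR adjusted p = 0.901) from September to February. With the block the second was 1.27 (SE 0.55, edgeR adjusted p = 0.385).

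novel_10 held 1479, 1538 and 161 CPM in September, 1363, 1178 and 272 CPM in November, and 766, 742 and 845 CPM in February. By CPM from totals, library 3 was far below libraries 1 and 2 in September and November and slightly above them in February. The TMM factors of February 1 to 3 were 0.848, 0.926 and 1.42, so this February order need not hold with TMM-scaled CPM. Also by CPM from totals, the February libraries spread by 53.7 CPM (SD, n = 3) against 779 in September. Its log2 fold changes were −0.24 (SE 0.94, edgeR adjusted p = 0.997), −0.29 (SE 0.94, edgeR adjusted p = 0.983) and −0.54 (SE 0.94, edgeR adjusted p = 0.901), and the month accounted for 0.00328% of its variance.

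novel_25 and novel_26 were low throughout. novel_25 held 8.4, 9.05 and 16.8 CPM in September, 11.8, 33.3 and 12.5 CPM in November, and 8, 13.3 and 20.1 CPM in February, from 2 to 15 counts a library. novel_26 held 8.4, 22.6 and 26.6 CPM, 12.6, 11.1 and 49.9 CPM, and 38, 13.3 and 6.7 CPM in the same libraries, from 1 to 48 counts. The months of both overlapped in all 3 comparisons. The log2 fold changes of novel_25 were 0.4 (SE 0.73, edgeR adjusted p = 0.997), −0.4 (SE 0.74, edgeR adjusted p = 0.983) and 0.00 (edgeR adjusted p = 0.998; at a value this close to 0 the standard error is not given). Those of novel_26 were 0.52 (SE 1.05, edgeR adjusted p = 0.997), −0.38 (SE 1.05, edgeR adjusted p = 0.983) and 0.14 (SE 1.05, edgeR adjusted p = 0.951).

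The 6 names under the minimum summed to 4 (novel_23) to 50 (novel_18) counts over all libraries. novel_18 held 4, 2 and 14 counts in September, 2, 0 and 27 in November, and 0, 1 and 0 in February. Most of its counts lay in September 3 and November 3, and the zeros of February 1 and 3 allow up to 6 and 20.1 CPM. The second of these limits lies above the 19.6 CPM of September 3, so a difference from that library was not detectable in February 3. novel_21 held 5, 7 and 14 counts in September, 1, 4 and 9 in November, and 3, 0 and 1 in February. novel_1 was seen in 5 libraries, with 7 of its 28 counts in September 3, 10 in November 3 and 9 in February 2. novel_2 had 1 to 11 counts in 8 libraries, and its highest were 9 in September 1, 8 in November 1 and 11 in February 1. novel_29 had 8 counts in 4 libraries and novel_23 had 4 counts in 4 libraries, so both were close to the detection limit. In an edgeR fit of all 361 names, none of these 6 had an unadjusted p under 0.05 in any of the 3 comparisons, and the adjusted p was 0.792 to 1.

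Over the 13 tested predicted names, edgeR with TMM factors and the minimum above made no call without the block. With a stricter minimum of 50 counts in 3 libraries it called novel_15 from September to February (adjusted p = 0.04). Between September and November 0 of 13 were called, as were 0 of 145 names (0%), and DESeq2 called 0 with and without the block. By unadjusted p under 0.05, edgeR had 0 of 13 and 2 of 145 names (1.38%), and with the block 0 of 13 and 5 of 145 (3.45%). Overlaps and pairs, here and below, were counted by CPM from totals. The months did not overlap, with November higher, for novel_15 alone among the 13, and for 9 of 145 (6.21%). With November lower they did so for 0 of 13 and for 3 of 145 (2.07%). November was higher in 3 of 3 pairs for 2 of 13 and 32 of 145 (22.1%), and lower for 3 of 13 and 23 of 145 (15.9%). The median log2 fold change was 0.03 over the 13 names and 0.2 over all 145.

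Between November and February edgeR called 0 of 13 and 0 of 145, with and without the block. DESeq2 called 1 of 13 and 4 of 145 (2.76%), and with the block 1 of 13 and 5 of 145 (3.45%). The called name was novel_15 without the block and novel_6 with it. By unadjusted p, edgeR had 1 of 13 and 5 of 145 (3.45%), and with the block 3 of 13, all higher in February, and 14 of 145 (9.66%). Those 3 were novel_6, novel_8 and novel_15. The months did not overlap with February higher for 1 of 13 and 4 of 145 (2.76%), and with February lower for 0 of 13 and 7 of 145 (4.83%). February was higher in 3 of 3 pairs for 3 of 13 and 21 of 145 (14.5%), and lower for 1 of 13 and 33 of 145 (22.8%). The median log2 fold change was 0.12 over the 13 names and −0.18 over all 145.

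Between September and February edgeR called 0 of 13 and 0 of 145. With the block it called 1 of 13, novel_15, and 5 of 145 (3.45%). DESeq2 called the same name and 5 of 145 (3.45%), and with the block the same name and 21 of 145 (14.5%). By unadjusted p, edgeR had 1 of 13 and 7 of 145 (4.83%), and with the block 3 of 13 and 31 of 145 (21.4%), so the members' share was near the background. The 3 were novel_6, novel_15 and novel_28, all higher in February. Months did not overlap with February higher for 1 of 13 and 6 of 145 (4.14%), and with February lower for 0 of 13 and 10 of 145 (6.9%). In 3 of 3 pairs February was higher for 4 of 13 and 32 of 145 (22.1%), and lower for 0 of 13 and 36 of 145 (24.8%). The 4 were novel_6, novel_8, novel_15 and novel_28, by CPM from totals. In number 3, novel_6 held 332 CPM in September and 349 in February, where the TMM factors were 0.895 and 1.42. That pair, and those of novel_8 in numbers 1 and 3, need not stay higher with TMM-scaled CPM. Fold changes were −1.09 to 2.66 over the 13 names, with a median of 0.34 against 0.03 over all 145. The comparisons share libraries and are not independent.

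How far libraries agreed depended on their number more than on their month, for predicted as for known names. The number accounted for a larger part of the variance than the month in 10 of 13 predicted names (76.9%) and in 108 of 132 known names (81.8%). The medians were 49.1% by number and 13.9% by month for predicted names, and 59.9% and 12% for known names. Across the 19 names, the rank correlation of CPM between libraries was 0.776 to 0.953 for the 9 pairs of the same number, 0.73 to 0.926 for the 9 pairs of the same month and 0.707 to 0.92 for the other 18. It follows mainly the large differences of level between names, which are no replicates of each other.

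Deviations from the month's mean over the 13 tested names correlated at −0.402 to 0.861 between libraries of the same number. The negative values were those of February 2 with September 2 (−0.402) and with November 2 (−0.0403), and the other 7 pairs were at 0.329 to 0.861. Over all 145 names the same 2 pairs were at 0.461 and 0.366. February 2 was closer to September 1 (0.831) and November 1 (0.629) over the 13 names, and over all 145 (0.799 and 0.711). September 2 and November 2 correlated at 0.687 over the 13. The pairing of February 2 with the libraries numbered 2 thus rested on little, and values with the block carry this limit. What the number stands for is not said in the labels, so what underlies the part of the variance that goes with it was not tested.

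For each tested name the known name with the most similar profile of log2 CPM over the 9 libraries was identified, as a description. Each r is the highest among 132 known names, so a high value follows in part from the choice. The libraries numbered 3 stood apart, so that the correlation without them (6 libraries) is given too. The 2 closest were novel_14 and novel_28, both with pab-miR536b, at r = 0.945 (rho 0.933) and 0.942 (rho 0.9), and 0.806 and 0.818 without number 3. pab-miR536b held 18.9, 49.8 and 0 CPM in September, 26.8, 300.0 and 1.04 in November, and 134, 173 and 26.8 in February. In library 3 of these months novel_28 held 1, 4 and 2 counts, so its likeness rested partly on values near the detection limit. novel_6 was closest to csi-miR396e-5p (r = 0.919, rho 0.933, 0.922 without number 3). That name held 1559, 1045 and 137 CPM in September, 1555, 711 and 185 in November, and 2613, 1882 and 228 in February, also lowest in library 3 each month.

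novel_3 and novel_16 were both closest to ath-miR394a, at r = 0.858 (rho 0.867) and 0.903 (rho 0.75), and 0.995 and 0.901 without number 3. ath-miR394a held 109, 416 and 255 CPM in September, 48.1, 556 and 372 in November, and 70, 82.4 and 529.5 in February, and was highest in the same library of each month as both. novel_15 was closest to ppt-miR529e (r = 0.861, rho 0.833, 0.883 without number 3), which held 65.1, 40.7 and 18.2 CPM in September, 34.7, 66.7 and 350.5 in November, and 448, 888 and 549.6 in February. Unlike those of novel_15, its September and November values overlapped.

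Among the other names, novel_24 was closest to pab-miR2950a (r = 0.9, rho 0.9, r = 0.668 without number 3) and novel_19 to pta-miR159a (r = 0.884, rho 0.933, r = 0.614 without number 3). The closest to novel_13 was gma-miR4995 (r = 0.795, rho 0.733, r = 0.795 without number 3), and to novel_10 it was cln-miR162 (r = 0.789, rho 0.767, r = −0.0373 without number 3). For novel_26 it was pab-miR159a (r = 0.774, rho 0.667, r = 0.411 without number 3), for novel_25 osa-miR167d-5p (r = 0.692, rho 0.717, r = 0.843 without number 3) and for novel_8 ath-miR160a-5p (r = 0.624, rho 0.65, r = 0.672 without number 3). The likeness of novel_10 and cln-miR162 thus rested on the libraries numbered 3, and those of novel_19, novel_24 and novel_26 were lower without them. Among the predicted names themselves the highest was between novel_14 and novel_28 (r = 0.852, rho 0.883, 0.389 without number 3), and the lowest was between novel_6 and novel_16 (r = −0.859, rho −0.733, −0.874 without number 3).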

How the data were processed

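The authors deposited raw read counts per miRNA name and library, per the file headers, with no normalization. CASAVA 1.8, TopHat2 2.0.12, HTSeq 0.6.1 and Bowtie appear in the submitters' processing notes with no role stated. How small RNAs were aligned, to which build, and how new miRNAs were predicted is not given in the sources used here. Libraries were grouped by the month in their labels, and the mRNA table was not used. Members and lists were chosen with earlier results of these data known.

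CPM is a count divided by the library's total of listed counts, which was 90008 to 1269029. Month overlaps, pair counts and library orders used this CPM, without TMM factors unless said. In R 4.3.3, all 9 libraries were fitted by edgeR 4.0.16 (TMM factors, quasi-likelihood test). A name was tested if 3 or more libraries held 10 or more counts of it, which left 145 names. These include known names with the same counts as another, and 132 remained with identical names counted once. Shares over the 145 names and over known names count every such name. Each fit had 1 coefficient per month. Standard errors are the log2 fold change divided by the root of the F statistic. p-values were adjusted by Benjamini-Hochberg over all names tested in a comparison, with a threshold of 0.05. DESeq2 1.42.0, other scalings and filters, left-out libraries and the library number as a block were alternatives. The script was tested on simulated data. Profiles were compared on log2 CPM with TMM factors and a prior count of 2.

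All 19 predicted names were to be named, those past the minimum with all values, each with the known name of the highest Pearson correlation. pab-miR536b and pab-miR159a each shared this place with another name of the same profile.

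Deviations from the month's mean correlated, over 145 names, at 0.366 to 0.901 in each of the 9 pairs of libraries with the same number. Pairs sharing neither month nor number were at −0.842 to 0.799. February 2 was at 0.799 with September 1 and 0.711 with November 1. These lie above its 0.461 with September 2 and 0.366 with November 2, so its number did not mark its closest match. The numbers were taken as pairing the libraries all the same, on the data and not on a label. Values with the replicate block carry this limit and are given where they change a call.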

Additional observations from a re-analysis of the deposited data

How the results depend on the processing

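With TMM scaling, edgeR and no block, 0 of 13 predicted names and 0 of 145 names passed in each comparison, and the 39 log2 fold changes of the predicted names are those of this fit. The largest one that changed sign under any alternative other than a left-out library was 0.54 in size, and no changed value passed the threshold. The causes were not tested. The signs of novel_8, novel_15 and novel_28 held in all alternatives in which they were fitted. Standard errors were smaller with the replicate block for many names. From September to November they were 0.59 against 1.16 without it for novel_24 and 0.52 against 0.97 for novel_14. For novel_25 they hardly differed (0.71 against 0.73). The edgeR fits that join the replicate block with another scaling or filter, with only 2 months, with number 3 left out or with identical names counted once were chosen after seeing the data. Counts under 10 reads, as for novel_19, novel_25 and novel_28 in several libraries, and 3 libraries a month limit what could be detected.

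Calls changed as follows. For all names from September to November, the replicate block with libraries numbered 3 left out called 1 name. From November to February, DESeq2 called 4 names, DESeq2 with the replicate block 5 and the replicate block without number 3 called 12, of which 1 each was a predicted name. From September to February, the replicate block called 5 names, 5 with RLE factors, 5 with identical names counted once, 3 with the stricter filter, 3 with only the 2 months compared, 2 with total counts only, 2 with upper quartile factors, 2 with no filter on low counts and 26 without number 3. Without the block the stricter filter called 1 name and DESeq2 5, and DESeq2 with the block called 21. Predicted names among these were 1 in each, except 0 with upper quartile factors or no filter and 3 without number 3. With a library left out, with or without the block, 0 to 7 names (0 to 2 predicted) were called from November to February and 0 to 16 names (0 to 2 predicted) from September to February. The highest counts came with the block and without November 3 (4 and 15 names) or February 3 (7 and 16). Of the 5 names called with the block from September to February, the count went to 1 without November 2 or February 2 and to 0 without any of September 1 to 3, November 1 or February 1. Without the block, 1 was called without November 3. The block changed no other call of edgeR. Without the most abundant predicted name, the mean share went from 1.19% to 0.434% in September, from 1.33% to 0.395% in November and from 1.28% to 0.89% in February.

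Signs changed for small fold changes. From September to November, novel_3 was at 0.31 with total counts only, 0.13 with RLE factors or DESeq2, 0.36 with the stricter filter, 0.32 without number 3 and 0.03 with identical names counted once. With only the 2 months compared, and with sizes from known names only, novel_6 was at 0.08, novel_10 at 0.02 and novel_13 at −0.00. With the replicate block, novel_10 was at 0.01 (stricter filter) and 0.09 (2 months). With upper quartile factors novel_13 was at −0.89, novel_14 at −0.62 and novel_26 at −0.04, and with the block too at −0.23, −0.46 and −0.04. With no filter novel_13 was at −0.14 and novel_14 at −0.04, and novel_14 at −0.08 with the block too. The block without number 3 put novel_13 at −0.08.

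From November to February, novel_10 was at 0.12 with the replicate block, and with the block at 0.08 (DESeq2), 0.25 (total counts only, and stricter filter), 0.09 (RLE), 0.32 (upper quartile), 0.24 (no filter) and 0.06 (identical names once). novel_13 was at −0.03 with total counts only, −0.12 with RLE factors or DESeq2 and −0.91 without number 3. novel_16 was at −0.09 with RLE factors or DESeq2, −3.17 without number 3 and −0.45 with the replicate block. With the block it was also at −0.50 (DESeq2), −0.20 (total counts only), −0.48 (RLE), −0.10 (upper quartile), −0.12 (no filter), −0.26 (stricter filter), −1.23 (2 months), −2.39 (without number 3) and −0.55 (identical names once). novel_26 was at 0.20 with upper quartile factors.

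From September to February with the replicate block, novel_10 was at 0.06 (DESeq2, and RLE), 0.19 (total counts only), 0.25 (stricter filter) and 0.08 (2 months), novel_19 at −0.21 (upper quartile) and −0.18 (no filter), novel_26 at −0.12 (upper quartile), and novel_25 at −0.00 (RLE), −0.17 (upper quartile), −0.05 (no filter) and −0.03 (identical names once). Without the block, novel_13 was at −0.54 (upper quartile), −0.09 (no filter) and −0.84 (without number 3), novel_16 at 0.24 (total counts only) and 0.30 (stricter filter), novel_25 at −0.12 (upper quartile) and −0.04 (identical names once), and novel_26 at −0.12 (no filter).

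With a library left out, with or without the block, 25 of the 39 fold changes changed sign at least once. From September to November the ranges were −0.93 to 0.64 for novel_3, −1.4 to 0.53 for novel_6, −0.74 to 0.44 for novel_10, −0.46 to 2.31 for novel_13, −0.76 to 0.66 for novel_14, −0.84 to 0.47 for novel_16, −0.2 to 1.9 for novel_19, −1.78 to 0.06 for novel_24 and −0.89 to 1 for novel_26. From November to February they were −1.98 to 0.57 for novel_3, −0.73 to 0.96 for novel_10, −0.74 to 2.02 for novel_13, −0.3 to 1.7 for novel_14, −2.86 to 1.19 for novel_16, −0.81 to 0.28 for novel_19, −1.69 to 0.72 for novel_24, −0.49 to 0.02 for novel_25 and −1.53 to 0.89 for novel_26. From September to February they were −1.65 to 0.12 for novel_3, −1.04 to 0.85 for novel_10, −0.19 to 2.6 for novel_13, −3.21 to 0.9 for novel_16, −0.6 to 1.61 for novel_19, −0.36 to 0.36 for novel_25 and −1.01 to 1.21 for novel_26. The other 14 kept their sign. Their ranges in the same 3 comparisons were −1.34 to −0.48, 0.7 to 1.71 and 0.06 to 0.83 for novel_8, 0.84 to 1.32, 1.28 to 2.06 and 2.45 to 3.07 for novel_15, and 0.91 to 2.28, 0.04 to 1.06 and 1.48 to 2.84 for novel_28, which could be fitted in 12 of 18 cases. From September to February they were 0.14 to 1.68 for novel_14 and −1.63 to −0.16 for novel_24, and from September to November 0.09 to 0.51 for novel_25. In each comparison novel_25 too could be fitted in only 12 of 18 cases. Those of novel_6 are given with its values above.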
